A study of Mus musculus with 6 samples.

Results

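The well-counted noncoding RNAs of the mouse oocyte were defined as genes of the count table that the RefSeq annotation types as lncRNA or ncRNA and that had at least 200 raw counts in at least 3 of 6 libraries, leaving out H19, Meg3, Rian and Kcnq1ot1. Of 24421 genes in the table, 2275 were typed lncRNA and 0 were typed ncRNA, and 160 of them met the rule. The members were thus selected on their raw counts in these same libraries, whichever genotype the counts came from. None of the 4 RNAs left out by name reached the count threshold in 3 libraries. Of the 160 RNAs, 133 carried clone or gene-model names and 27 carried other symbols. GENCODE types 11 of the 160 as protein coding.

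The libraries came from germinal vesicle (GV) oocytes, which are fully grown oocytes arrested before they resume meiosis. The DKO group had the genotype Ring1 -/-; Rnf2 f/f; Zp3-cre, and the SKO group had the genotype Ring1 -/-; Rnf2 f/f, with 3 libraries each. The Zp3 promoter drives Cre in growing oocytes, so Rnf2 was deleted during oocyte growth, and both groups lacked Ring1 throughout the body. The comparison therefore bears on the loss of Rnf2 without Ring1, and no oocyte with intact Ring1 was analysed here. Each library held 15 GV oocytes pooled from 1 mouse, the mice were females aged about 3 months with a mixed FVB, 129/Sv and C57BL/6J background, and granulosa cells had been removed by pipetting. The transgene was present in DKO alone, so its own effect and that of the deletion cannot be told apart. In pooled oocytes, less RNA in each oocyte and loss of the RNA from some of the oocytes cannot be told apart either.

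RING1 and RNF2 are the alternative E3 ligases of Polycomb repressive complex 1 (PRC1), which places ubiquitin on histone H2A and keeps developmental genes silent, often at starts rich in CG dinucleotides. Long noncoding RNAs (lncRNAs) are transcripts without an established protein product, and they include antisense transcripts of coding genes, transcripts that start divergently from a coding promoter, hosts of small nucleolar RNAs and intergenic transcripts. Growing mouse oocytes accumulate many long noncoding transcripts that few other tissues make, some of them started from retrotransposon long terminal repeats, and the full-grown GV oocyte stores its RNA while transcription is silenced.

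Rnf2 had 989, 654 and 589 counts in the DKO libraries, against 5041, 3901 and 4563 counts in the SKO libraries, a log2 fold change of -2.38 (edgeR quasi-likelihood test, adjusted p = 0.000349). Library totals ranged from 15521975 to 26652745 counts. The summed level of 16 oocyte markers was 15329 to 19292 CPM (reads of a gene divided by the scaled library size) in DKO and 24658 to 26390 CPM in SKO. Of the 16, 8 were called lower and 1, Dppa3, higher (log2 fold change 0.87). The summed level of 18 granulosa and cumulus cell markers was 400.5 to 442 CPM in DKO and 214 to 238 CPM in SKO. Of 14 tested, 7 were called higher and 1, Cyp19a1, lower (log2 fold change -0.82). The largest log2 fold changes among those called higher were those of Fshr (5.91) and Ptgs2 (4.52). Ptgs2 had a mean of 87.1 CPM in DKO and 3.80 CPM in SKO, whereas Ptx3 was at 0 in all libraries. Markers of theca, stroma and endothelium summed to 111 to 124 CPM in DKO and 118 to 158 CPM in SKO. Of 9 tested, 4 were called higher and 1, Pecam1, lower. Pecam1 made up the largest part of this sum, at a mean of 61.0 CPM in DKO and 110 CPM in SKO. Markers of blood and immune cells summed to 5.16 to 9.06 CPM in DKO and 1.31 to 3.54 CPM in SKO, and of 2 tested 1 was called higher and 0 lower. The part of these marker differences in the results on the noncoding RNAs was not tested.

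Together, the 160 RNAs took 1.46%, 1.41% and 1.56% of the counts in the DKO libraries, against 1.47%, 1.47% and 1.57% in the SKO libraries. The groups overlapped, at 1.48% ± 0.075 in DKO and 1.51% ± 0.058 in SKO (SD, n = 3 each). Most of these reads belonged to few RNAs: the 8 with the highest mean CPM held 56.7% to 64.5% of the members' counts in DKO and 57.4% to 58.7% in SKO. The number of RNAs at 200 counts or more was 120, 135 and 142 in DKO, against 149, 143 and 155 in SKO. Each SKO library thus had more than any DKO library, and DKO libraries 1 and 2 also had fewer reads in total than any SKO library.

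The 8 RNAs that took the most reads were C86187, Gm1965, AU015836, 4933427D06Rik, Arhgap20os, Gm3143, D6Ertd474e and A730082K24Rik. Per length, on the RPKM scale (reads per length and library size, with the deposited gene lengths), their mean levels over both groups ran between 171 for A730082K24Rik and 805 for C86187. C86187 had 1329, 1419 and 1776 CPM in DKO oocytes, against 2084, 2293 and 2586 CPM in SKO oocytes. All 3 DKO values lay below all 3 SKO values, and the log2 fold change was -0.62 ± 0.17 (SE, adjusted p = 0.0235). Gm1965 had 1254, 1683 and 2249 CPM in DKO and 1905, 1973 and 2268 CPM in SKO, and the groups overlapped (log2 fold change -0.24 ± 0.21, SE, adjusted p = 0.434). AU015836, an X-linked gene that GENCODE types as protein coding, had 1687, 1208 and 2141 CPM in DKO and 1551, 1515 and 1609 CPM in SKO. Its log2 fold change was 0.11 ± 0.20 (SE), and the SKO values lay inside the range of the DKO values. Of the 8, only C86187 (lower) and Gm3143 (higher) were called. The other 6 had log2 fold changes between -0.27 and 0.11.

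**Figure D1:**
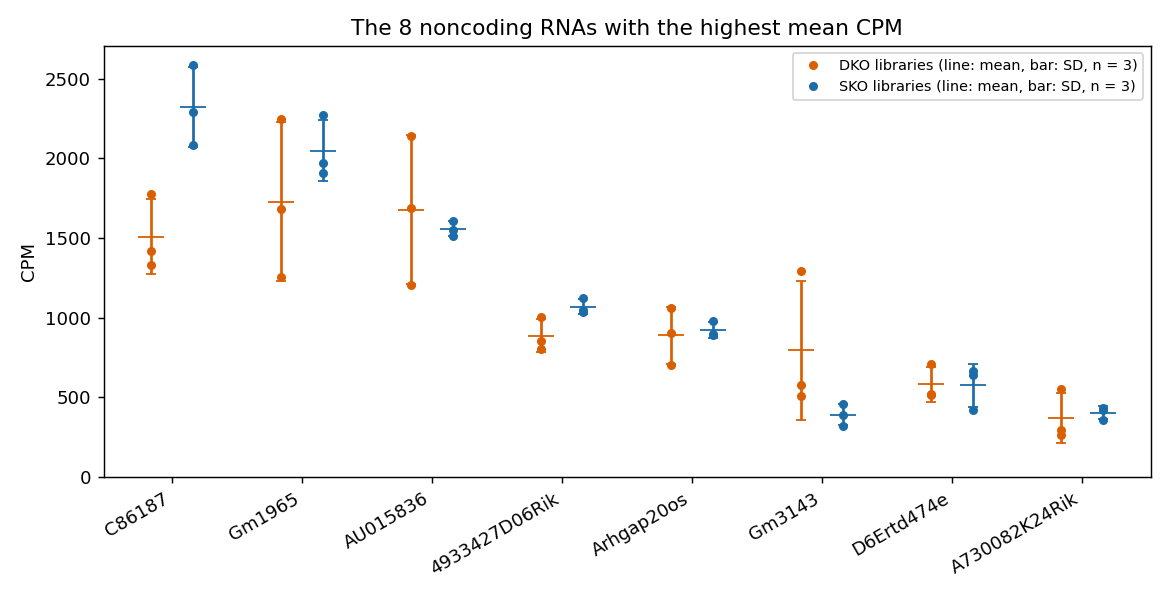
CPM of the 8 noncoding RNAs with the highest mean CPM in each DKO and SKO library; points are libraries, horizontal lines means and bars SD (n = 3 each). The C86187 points do not overlap between the groups, whereas Gm1965 and AU015836 spread more widely in DKO than in SKO.

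Among the 160 RNAs, all of which passed the low-count filter, 14 were called higher and 29 lower in DKO at an adjusted p under 0.05 over all 14845 genes tested, and 117 were not called. As shares, 8.75% rose and 18.1% fell, against 17.3% and 7.41% of all genes tested. Coding genes that met the same count rule had 13.1% called higher and 10.9% called lower. The 610 tested noncoding RNAs below the rule had 9.18% called higher and 3.77% called lower. The part of the threshold of 200 counts in these shares was not tested. The median log2 fold change was -0.27 over the 160 RNAs, with 110 below 0 and 50 above, -0.09 over 8657 coding genes that met the rule and 0.04 over all genes tested. Changes of at least 2-fold made up 9 of the 14 rises and 15 of the 29 falls. Over all genes tested they made up 2267 of 2567 rises and 426 of 1100 falls. Among coding genes that met the rule they made up 839 of 1131 rises and 288 of 940 falls. With libraries scaled by their totals alone, which moved the median of all genes to 0.20, 19 members were called higher and 18 lower, so the split between rises and falls depends on the scaling. The groups did not overlap for 23 RNAs above and 58 below in DKO, where 24.7% and 19.6% of all genes tested did so. Of the 8657 coding genes that met the count rule, 1619 lay above and 2309 below, so these too leaned downward.

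The share of coding genes called lower grew with their level, from 6.39% under 20 CPM to 17.4% at 200 CPM and above, while the share called higher shrank from 21.8% to 2.34%. The noncoding RNAs had 6 higher and 11 lower among 65 RNAs under 20 CPM, 5 higher and 10 lower among 53 at 20 to 50 CPM, 2 higher and 7 lower among 32 at 50 to 200 CPM, and 1 higher and 1 lower among 10 above that. Spread within DKO was wider than within SKO. The median SD of log2 CPM over 3 libraries was 0.37 in DKO and 0.15 in SKO, and it was larger in DKO for 136 of the 160 RNAs. This was not particular to these RNAs. Coding genes that met the count rule had medians of 0.32 in DKO and 0.14 in SKO, with a larger SD in DKO for 6846 of 8657. All genes tested had medians of 0.37 and 0.19, with a larger SD in DKO for 10845 of 14845.

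The count rule shaped which RNAs could differ. A total of 103 RNAs had 200 counts in all 6 libraries, and of these 7 were called higher and 18 lower. Tunar, Paupar, Gm30790, A530046M15Rik and 9530027J09Rik reached 200 counts in all 3 DKO libraries and in 0 SKO libraries, so they entered through the genotype in which they were higher. Gm15941, 1600002D24Rik, Gm20759, Gm15708 and Gm5 reached it in all 3 SKO libraries and in 0 DKO libraries, and the first 3 of them were called lower. Just inside the threshold, the third-highest count was 200 for 1700099I09Rik and 201 for B020014A21Rik and Gm30790, and just outside it was 199 for Gt(ROSA)26Sor, 197 for 1810062O18Rik and 195 for 2610037D02Rik.

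**Figure D2:**
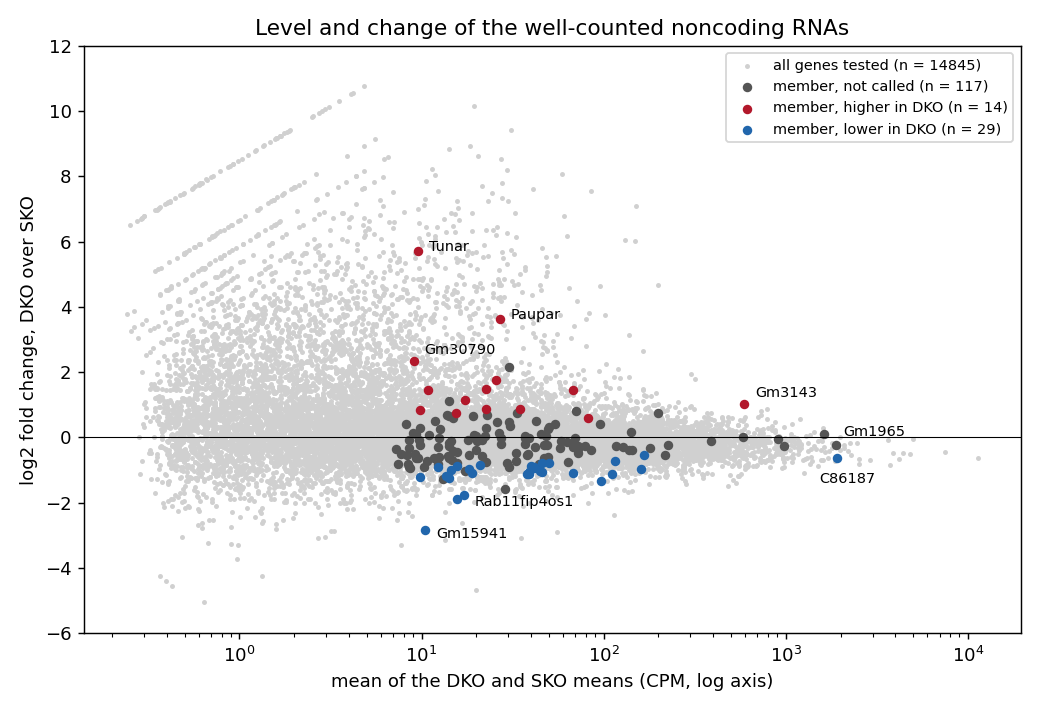
Log2 fold change of DKO over SKO against the mean of both groups' mean CPM (log axis) for all 14845 genes tested (grey) and the 160 noncoding RNAs (14 called higher in red, 29 called lower in blue, 117 not called in dark grey). Tunar and Paupar stand highest among the members and Gm15941 lowest, and C86187 is the most abundant member called.

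The largest rises were those of Tunar and Paupar, transcripts known from the nervous system. Tunar, an RNA needed for pluripotency and neural differentiation of mouse embryonic stem cells, lies on chr12:105336594-105383932 (GRCm38.p6, plus strand) and is typed as protein coding in GENCODE. It had 261, 385 and 598 counts in DKO oocytes, against 13, 7 and 5 counts in SKO oocytes. Every DKO library held many times the counts of any SKO library, at 14.9, 18.1 and 23.2 CPM in DKO and 0.523, 0.322 and 0.205 CPM in SKO (log2 fold change 5.71 ± 0.43, SE, adjusted p = 1.28e-05). Paupar is transcribed from the strand opposite to Pax6 and regulates neural genes in mouse cells. It had 28.1, 47.6 and 73.7 CPM in DKO, against 4.63, 1.66 and 5.71 CPM in SKO (log2 fold change 3.63 ± 0.48, SE, adjusted p = 0.000479). Its start lay 7553 bases from that of Pax6, a transcription factor of eye and brain development, which had 51.1, 51.5 and 70.0 CPM in DKO and 1.29, 1.29 and 1.77 CPM in SKO (log2 fold change 5.31 ± 0.28, SE). Both genes of the pair were called higher, with no overlap between the groups, and Pax6 by the larger fold.

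Mira lies within the Hoxa cluster of homeobox genes on chr6:52214491-52215288 (minus strand) and has been described in mouse embryonic stem cells as an activator of Hoxa6 and Hoxa7. It had 41.5, 27.7 and 30.9 CPM in DKO, against 11.6, 8.38 and 15.7 CPM in SKO, with no overlap (log2 fold change 1.48 ± 0.28, SE, adjusted p = 0.00407). Hoxa7, whose span lies 335 bases away on the same strand, had 652, 817 and 1085 counts in DKO and 371, 258 and 440 counts in SKO (log2 fold change 1.39 ± 0.23, SE). The other tested coding genes within 20000 bases, Hoxa3, Hoxa5, Hoxa6, Hoxa9 and Hoxa10, were all called higher too, at log2 fold changes of 3.31 to 8.15 and at most 6.78 CPM in DKO. In SKO, Mira averaged 11.9 ± 3.7 CPM and Hoxa7 15.0 ± 3.1 CPM (SD, n = 3), while the other 5 averaged at most 0.385 CPM, levels that are not corrected for gene length.

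Among intergenic rises, Gm30790 had 17.1, 9.44 and 19 CPM in DKO and 3.26, 2.58 and 3.08 CPM in SKO (log2 fold change 2.35 ± 0.35, SE, adjusted p = 0.000915). Its nearest tested coding start was that of Usp25, 234977 bases away, with a log2 fold change of 4.29. Gm8541 had 44.1, 30.5 and 43.8 CPM in DKO and 7.93, 15.2 and 12.2 CPM in SKO (log2 fold change 1.75 ± 0.29, SE, adjusted p = 0.00169). A530046M15Rik, 204608 bases from Inhba, had 20.2, 13.2 and 14.4 CPM in DKO and 6.52, 6.17 and 4.56 CPM in SKO (log2 fold change 1.47 ± 0.30, SE). In all 3 the groups were apart. Gm3143 had the highest mean CPM and RPKM of the RNAs called higher, with 507, 579 and 1296 CPM in DKO and 323, 392 and 455 CPM in SKO (log2 fold change 1.03 ± 0.32, SE, adjusted p = 0.0413). The third DKO library held more than the other two, and without it the log2 fold change was 0.47 and the call was lost. Its start lay 66667 bases from that of Sox2, a pluripotency and neural transcription factor that was itself called higher (log2 fold change 4.50). Sox2 averaged 19.4 ± 7.5 CPM in DKO, against 0.847 ± 0.404 CPM in SKO (SD, n = 3).

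The other rises were smaller. Gm45916 (log2 fold change 1.44), Gm10280 (1.16), BB031773 (0.88), Gm14164 (0.87), 9530027J09Rik (0.83), Gm2694 (0.76) and Gm17751 (0.60) completed the 14. Gm2694 starts 524 bases from Cbln1, which encodes a secreted synaptic protein, and divergently from it. It had 20.5, 17.2 and 20.2 CPM in DKO and 10.3, 10.6 and 13.3 CPM in SKO, and Cbln1 averaged 18.6 ± 8.5 CPM in DKO, against 3.96 ± 1.24 CPM in SKO (SD, n = 3; log2 fold change 2.23). Tunar, Paupar, Gm30790, Gm8541, Mira, A530046M15Rik and Gm45916 kept their call when any 1 library was left out. The other 7 rises lost it without SKO library 1, 2 or 3, and some also without DKO library 1 (Gm10280, 9530027J09Rik, Gm2694, Gm17751), 2 (9530027J09Rik) or 3 (Gm3143, 9530027J09Rik, Gm2694).

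The falls were more numerous under the main scaling, and most carried clone or gene-model names, as did 133 of all 160 RNAs. Gm15941 had 29, 104 and 30 counts in DKO, against 405, 400 and 502 counts in SKO, and fell furthest (log2 fold change -2.84 ± 0.49, SE, adjusted p = 0.00229). Without DKO library 2, the highest of the 3, its log2 fold change was -3.72. It lies inside the span of Ncald on the same strand without shared exons, and Ncald, a neuronal calcium sensor gene, had a log2 fold change of 0.10 (adjusted p = 0.713). Gm30052 had 4.39, 5.64 and 9.86 CPM in DKO and 26.4, 22.8 and 25.0 CPM in SKO (log2 fold change -1.89 ± 0.32, SE). Rab11fip4os1, antisense to Rab11fip4 without shared exons, had 6.78, 7.09 and 9.51 CPM in DKO and 27.6, 24.6 and 27 CPM in SKO (log2 fold change -1.76 ± 0.25, SE, adjusted p = 0.000672). Rab11fip4, an effector of the RAB11 GTPase of recycling endosomes, had a log2 fold change of -0.52 (adjusted p = 0.259). For these 3 RNAs every SKO library stood above every DKO library, and the coding gene around Gm15941 and Rab11fip4os1 was not called.

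AY512915 had 37.7, 53.0 and 73.7 CPM in DKO and 141, 132 and 143 CPM in SKO (log2 fold change -1.34 ± 0.23, SE). 1700001L05Rik had 113, 111 and 100 CPM in DKO and 220, 207 and 211 CPM in SKO, with the smallest standard error of the falls (log2 fold change -0.98 ± 0.15, SE, adjusted p = 0.0012). Dmrt1i (log2 fold change -1.25), Gm20759 (-1.22), 1600002D24Rik (-1.17), Gm38431 (-1.13), 4930599N23Rik (-1.12) and Gm17830 (-1.11) followed. The smallest fall called was that of E330011O21Rik (-0.53). Calls of 12 of the 29 falls held when any 1 library was left out: Gm15941, Gm30052, Rab11fip4os1, AY512915, 1600002D24Rik, 4930599N23Rik, Gm17830, Gm36480, Gm11665, Gm11426, 1700001L05Rik and Zim3. All of the others, among them C86187, Snhg1 and Gm839, were lost without SKO library 3 and many also without another library.

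Gm839, Gm1965 and 4933427D06Rik lie together on chr6:89096110-89216179. Gm839 was called lower (71.7, 96.1 and 92.7 CPM in DKO, against 143, 141 and 144 CPM in SKO; log2 fold change -0.72, adjusted p = 0.012). Its neighbours were not called, at log2 fold changes of -0.24 for Gm1965 and -0.27 for 4933427D06Rik. In all, 11 members lay in 5 groups with gaps of at most 100000 bases.

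**Figure D3:**
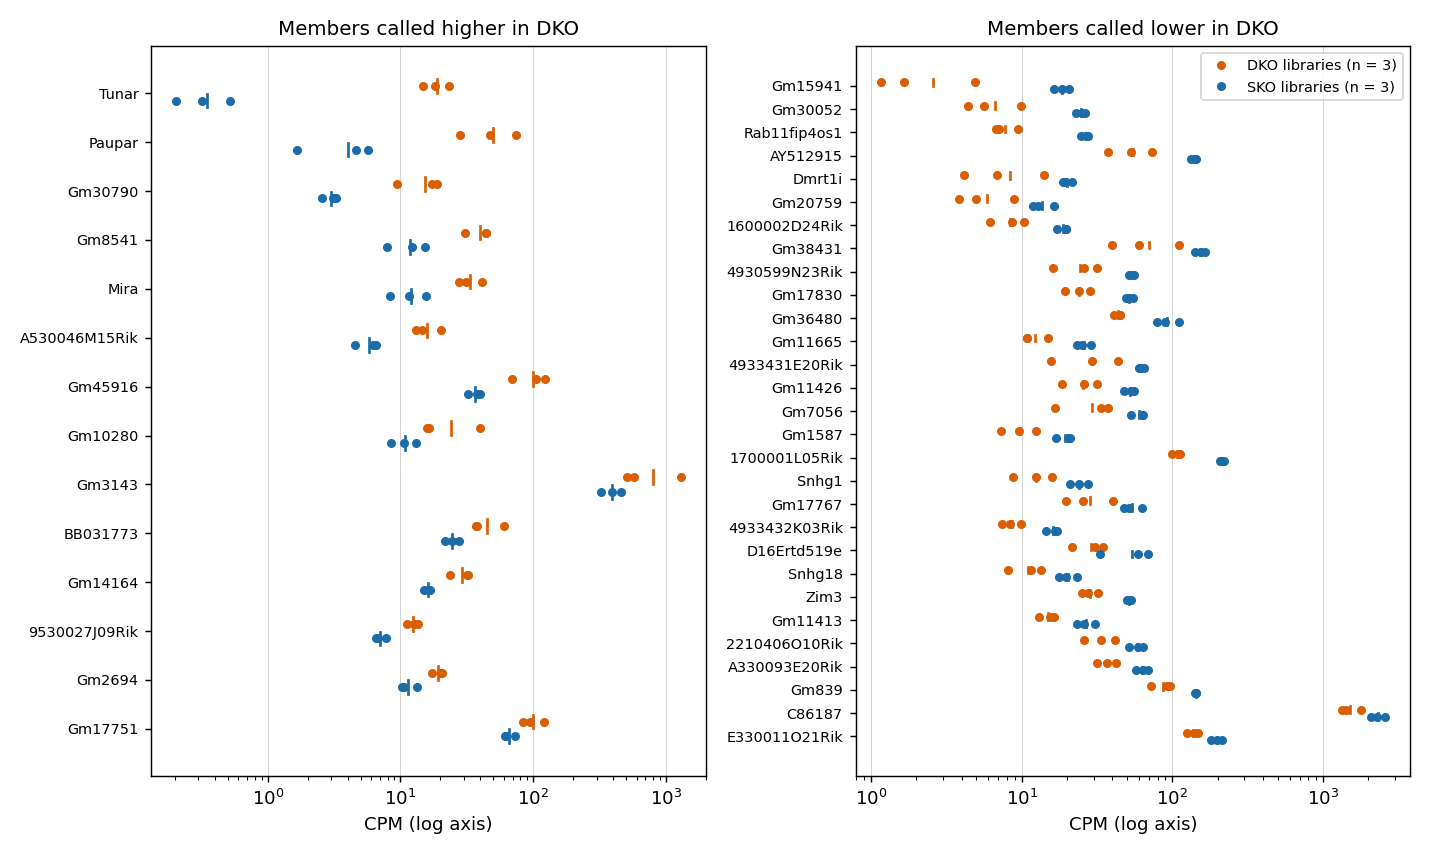
CPM (log axis) of the 14 members called higher (left panel) and the 29 called lower (right panel) in each library; points are libraries, vertical ticks the means of 3, with DKO (orange) drawn above SKO (blue) for each RNA. In the left panel all DKO points lie to the right of the SKO points, and in the right panel to their left except for D16Ertd519e, whose SKO library 2 (33.3 CPM) lies inside the DKO range of 21.6 to 34.7 CPM.

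Hosts of small nucleolar RNAs carry these RNAs in their introns, and their spliced transcripts are usually short-lived in growing cells. Snhg1 had 15.9, 8.83 and 12.5 CPM in DKO and 24.0, 20.9 and 27.4 CPM in SKO (log2 fold change -0.96 ± 0.27, SE, adjusted p = 0.0276). Snhg18, which holds Snord123, had 8.09, 11.6 and 13.5 CPM in DKO and 19.8, 17.7 and 23.4 CPM in SKO (log2 fold change -0.87 ± 0.27, SE, adjusted p = 0.0391). Both hosts were lower in every DKO library than in any SKO library. Of 31 small RNA hosts listed, 17 were tested, 1 rose (Mir17hg, a low-count gene outside the 160) and these 2 fell, and the median log2 fold change was -0.07 over the list. Gas5, a host of many small nucleolar RNAs, had 65, 37 and 75 counts in DKO and 34, 117 and 41 counts in SKO. Small RNA genes lie inside 5 of the 160 RNAs in all, and those with a row in the table held between 2 and 70 counts over the 6 libraries.

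Widely expressed nuclear RNAs were not called. Malat1, an RNA of nuclear speckles, had 75.2, 33.9 and 89.4 CPM in DKO and 100, 85.2 and 51.3 CPM in SKO, and the groups overlapped widely (log2 fold change -0.25 ± 0.35, SE, adjusted p = 0.633). Tug1, an RNA required for male fertility in mice, had 99.8, 98.5 and 123 CPM in DKO and 111, 142 and 131 CPM in SKO (log2 fold change -0.26 ± 0.17, SE, adjusted p = 0.312). Pvt1, a neighbour of Myc, had 18.1, 16 and 18.9 CPM in DKO and 22.2, 16.7 and 16.4 CPM in SKO (log2 fold change -0.06). Kantr, an X-linked RNA next to Kdm5c that GENCODE types as protein coding, had 139, 95.3 and 91.6 CPM in DKO and 87.0, 75.4 and 84.1 CPM in SKO, apart by little (log2 fold change 0.40, adjusted p = 0.168). Platr14, one of the pluripotency-associated transcripts of mouse stem cells, had a log2 fold change of -0.40, Plut, a neighbour of Pdx1, 0.05, and Tbx3os2 0.46. Of the antisense transcripts, Brip1os (0.12), Rab10os (-0.01), Hectd2os (-0.02), Arhgap20os (-0.05), Ube4bos3 (-0.49), Chn1os3 (-0.63), Slain1os (-0.79) and Stk35os1 (-1.27) were not called, nor was Ccdc201 (-0.63). The 117 RNAs not called had log2 fold changes between -1.58 and 2.16, so failing the test did not mean a small change for each of them.

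A list of RNAs linked to Polycomb or lying in Hox clusters, on which Mira was not entered, had 25 RNAs in the table, and 0 of them belonged to the 160. Of 11 tested, 5 were called higher and 1 lower. Haglr of the Hoxd cluster had 53, 15 and 64 counts in DKO and 0, 2 and 0 counts in SKO, and Emx2os, which RefSeq types as antisense RNA and the rule therefore did not admit, had 162, 211 and 217 counts in DKO and 80, 33 and 44 counts in SKO. Miat, of the nuclear body list, had 17, 23 and 16 counts in DKO and 0 in each SKO library. These 3 were called higher, from counts too low for the rule. Xist and Tsix, which act in X inactivation, were at 0 counts in all 6 libraries, and Jpx had 26, 27 and 59 counts in DKO and 24, 46 and 21 counts in SKO.

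Many of these RNAs overlap coding genes, and no source used here states how the counting treated strand, so reads of overlapping exons cannot be assigned to either strand. The spans of 70 RNAs overlapped a coding gene, and 53 shared exon sequence with one in GENCODE, 50 of them with a gene on the opposite strand and 3 on the same strand; 17 RNAs had no GENCODE match. Of the 90 matched RNAs without shared coding exons, 8 were called higher and 20 lower. Of the 17 without a match, whose exons could not be compared, 3 were called higher and 3 lower. Of the 53 with shared exons, 3 were called higher and 6 lower, and for 7 of these 9 at least 1 overlapping coding gene was called in the same direction. Among the 44 others with shared exons, 37 had no overlapping gene called.

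Zim3 and Gm38431 shared the most exon sequence with coding genes among the RNAs called. Zim3, a gene of the imprinted Peg3 domain, had 68.8% of its exons in exons of Usp29 on the other strand. Zim3 had 27.5, 25.3 and 32.2 CPM in DKO and 53.1, 51.1 and 50.1 CPM in SKO (log2 fold change -0.86 ± 0.19, SE), and Usp29, a paternally expressed gene of the same domain, averaged 57.0 CPM in DKO and 110 CPM in SKO (log2 fold change -0.94). Gm38431, which GENCODE types as protein coding, shared 68.6% of its exons with Raver1 and 20.5% with Fdx2, all on the same strand. It had 40.1, 110 and 60.3 CPM in DKO and 141, 164 and 155 CPM in SKO, and Raver1 (log2 fold change -0.79), an RNA-binding protein gene, and Fdx2 (-0.95), a ferredoxin of iron-sulfur cluster synthesis, were called lower as well. In both cases the RNA and the gene it overlaps moved together.

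The overlapping pairs also included BB031773 and Tctex1d1 (39.8% of exons; log2 fold changes 0.88 and 0.82), 4930599N23Rik and the histone demethylase gene Kdm7a (32.6%; -1.12 and -0.66), 9530027J09Rik and Utp14a (28.1%; 0.83 and 0.76), and Dmrt1i and Baiap2l1 (14.9%; -1.25 and -0.59). 4933431E20Rik (-1.07) shared 14.1% with Eps8l3 (-1.78) and 2.61% with Gstm5 (-0.92). The 2 exceptions were A330093E20Rik with Kcnn2 (8.53%; -0.78 and -0.07) and Gm14164 with Nrsn2 (12.1%; 0.87 and 0.61), whose coding genes were not called. Gm45916 lies opposite Slc16a6, a monocarboxylate transporter gene, and its exons could not be compared. Gm45916 had 105, 69.0 and 123 CPM in DKO and 37.6, 32.2 and 39.5 CPM in SKO, and Slc16a6 averaged 108 CPM in DKO and 2.28 CPM in SKO (log2 fold change 5.55). The difference in mean CPM between DKO and SKO was 62.4 for Gm45916 and 105 for Slc16a6, and whether reads of Slc16a6 were counted for Gm45916 was not tested. Counts of an RNA and its overlapping gene were within 10% of each other in every library for 1 pair, Gm12992 with Srsf4, neither of which was called.

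Of the 157 RNAs with a known start, the nearest start of a tested coding gene belonged to a gene called higher for 9 of the 14 rises, for 1 of 28 falls and for 24 of 115 RNAs not called. The nearest gene was called lower for 1 of the 14 rises, 7 of the 28 falls and 6 of the 115 others. Within 10000 bases, all 3 rises (Paupar, Mira and Gm2694) had a neighbour called higher and 6 of 7 falls a neighbour called lower, whereas 2 of 42 RNAs not called had a neighbour called higher and 2 called lower. Across genes, the log2 fold changes of RNA and neighbour had Pearson's r of 0.32 and Spearman's rho of 0.34 over 157 pairs, and r of 0.79 and rho of 0.40 over 52 pairs within 10000 bases. Without Tunar and Paupar, which met the count rule through DKO alone, r was 0.34 and rho 0.35 over 155 pairs. Gm30790, A530046M15Rik and 9530027J09Rik, which also met it through DKO alone, stayed among these 155 pairs. So did the RNAs that met it through SKO alone, so the coefficients are not free of the count rule. The 52 near pairs include Paupar with Pax6 (3.63 and 5.31), and their coefficients were not computed without it. All 157 pairs come from the same 6 libraries and some share exons, so the coefficients describe these libraries and are given without a test.

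A total of 36 RNAs started within 1000 bases of a coding start on the other strand. Of the falls, 5 were of this divergent kind, and for 4 of these the coding partner was called lower: Dmrt1i with Baiap2l1, 4933431E20Rik with Gstm5, 4930599N23Rik with Parp12 (log2 fold change -0.55) and 2210406O10Rik with Grpel1 (-0.79). The fifth was Snhg18, whose partner Sema5a, a semaphorin gene, averaged 240.0 ± 87.8 CPM in DKO and 245 ± 36.4 CPM in SKO (log2 fold change -0.03). Snhg1 lies 118 bases from the span of Slc3a2, an amino acid transporter subunit gene on the other strand, and both were called lower (-0.96 and -1.05). The start used for Slc3a2 was 9590 bases away, so this pair was not counted as divergent. Uchl1os, 376 bases from Uchl1, had 9.06, 18.7 and 6.48 CPM in DKO and 22.6, 22.1 and 24.6 CPM in SKO (log2 fold change -1.02 ± 0.36, SE) and missed the threshold at an adjusted p of 0.0652, while Uchl1, a ubiquitin hydrolase gene, was called lower (-0.72). Tunar rose, whereas its nearest tested coding start, that of Tcl1 at 113857 bases, had a log2 fold change of -0.40 (adjusted p = 0.228). Gm17751 (0.60) and Slc4a3 (-3.09), 942671 bases away, moved in opposite directions.

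**Figure D4:**
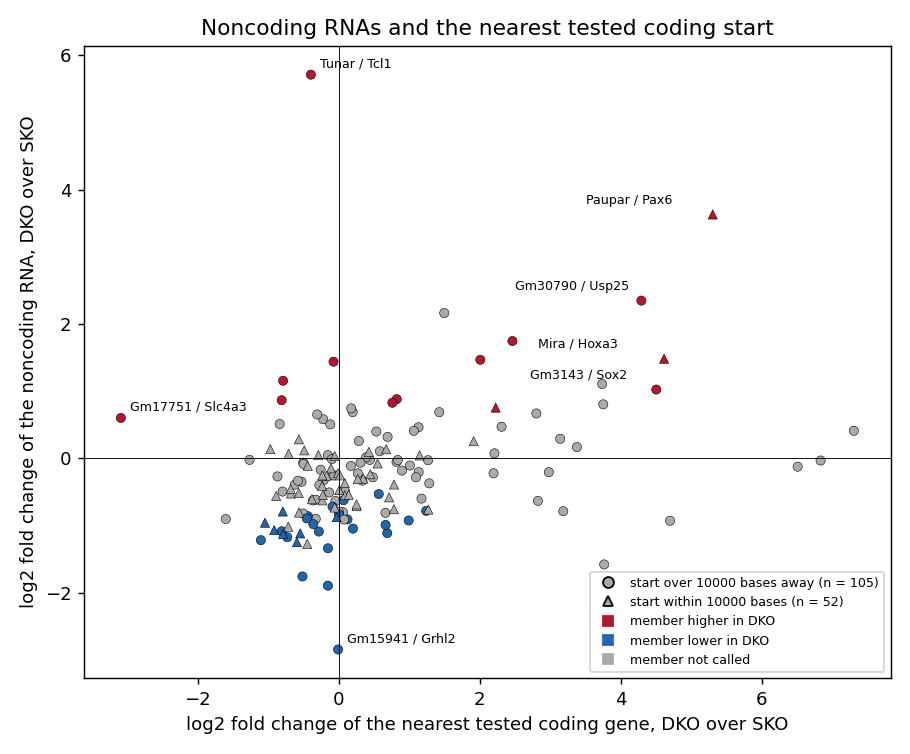
Log2 fold change (DKO over SKO) of each of 157 noncoding RNAs against that of the nearest tested coding start; triangles mark 52 pairs within 10000 bases, circles 105 pairs farther apart, and colours the call of the RNA. Paupar with Pax6 and Mira with Hoxa3 lie at the upper right, and Tunar, at 5.71, lies above a neighbour near -0.40.

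Starts of 121 of the 160 RNAs had a promoter sequence in the RefSeq set, 250 bases before to 50 after the start. They held a median of 6 CG dinucleotides in 300 bases, with a range of 0 to 45, against a median of 22 for coding genes that met the same count rule and 4 for all lncRNA genes in the set. At least 15 CG were found in 27.3% of the members' promoters, 74.6% of those of the coding genes and 12.9% of those of all lncRNA genes. By call, the share was 1 of 12 rises, 7 of 23 falls and 25 of 86 others. The motif GGGCGG, which contains a CG itself, occurred on either strand in 29.8% of the members' promoters and 35.9% of all promoters of that length, and TATAAA in 12.4% and 14.2%. For GGGCGG the share was 66.1% in coding genes that met the count rule and 16.8% in all lncRNA genes. For TATAAA it was 6.48% and 15.7%.

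Promoters of 4 rises are shown: Tunar for the largest rise, Mira for its place in the Hoxa cluster, Gm3143 for its high level, and Gm8541 for a rise far from any tested coding start. C86187 is shown as the most abundant fall and Snhg1 as a host gene start (RefSeq, GRCm38.p6, 5′ to 3′ on the strand of the gene, with each CG in capitals). They are Tunar (chr12:105336344-105336643, plus strand), Mira (chr6:52215239-52215538, minus strand), Gm8541 (chr2:63575239-63575538, minus strand), Gm3143 (chr3:34716613-34716912, minus strand), C86187 (chr7:46975862-46976161, minus strand) and Snhg1 (chr19:8723237-8723536, plus strand).
Tunar: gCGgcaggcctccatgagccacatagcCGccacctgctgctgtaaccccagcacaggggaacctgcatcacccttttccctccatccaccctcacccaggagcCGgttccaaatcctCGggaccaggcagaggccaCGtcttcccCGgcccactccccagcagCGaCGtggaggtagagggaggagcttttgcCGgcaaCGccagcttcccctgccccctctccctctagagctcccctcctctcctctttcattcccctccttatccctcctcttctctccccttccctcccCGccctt
Mira: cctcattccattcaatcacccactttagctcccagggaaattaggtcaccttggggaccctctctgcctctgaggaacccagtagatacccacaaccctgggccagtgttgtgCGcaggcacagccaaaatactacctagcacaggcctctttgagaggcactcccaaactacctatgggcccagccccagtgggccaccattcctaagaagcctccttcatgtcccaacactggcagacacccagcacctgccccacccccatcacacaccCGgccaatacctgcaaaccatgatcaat
Gm8541: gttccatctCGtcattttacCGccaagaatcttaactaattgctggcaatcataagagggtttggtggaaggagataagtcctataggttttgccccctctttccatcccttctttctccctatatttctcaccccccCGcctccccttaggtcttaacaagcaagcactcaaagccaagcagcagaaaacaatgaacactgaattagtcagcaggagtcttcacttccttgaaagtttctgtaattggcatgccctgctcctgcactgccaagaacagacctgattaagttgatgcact
Gm3143: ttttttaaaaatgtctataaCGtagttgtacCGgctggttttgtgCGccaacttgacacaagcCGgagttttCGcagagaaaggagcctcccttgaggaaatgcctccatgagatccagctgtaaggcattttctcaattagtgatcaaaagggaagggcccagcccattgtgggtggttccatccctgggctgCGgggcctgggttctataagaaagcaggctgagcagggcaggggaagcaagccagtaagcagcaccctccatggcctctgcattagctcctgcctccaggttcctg
C86187: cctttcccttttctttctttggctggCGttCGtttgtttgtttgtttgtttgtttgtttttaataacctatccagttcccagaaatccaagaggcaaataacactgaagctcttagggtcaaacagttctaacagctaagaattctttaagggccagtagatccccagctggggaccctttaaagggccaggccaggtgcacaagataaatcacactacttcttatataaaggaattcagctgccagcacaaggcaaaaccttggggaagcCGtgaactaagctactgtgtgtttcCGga
Snhg1: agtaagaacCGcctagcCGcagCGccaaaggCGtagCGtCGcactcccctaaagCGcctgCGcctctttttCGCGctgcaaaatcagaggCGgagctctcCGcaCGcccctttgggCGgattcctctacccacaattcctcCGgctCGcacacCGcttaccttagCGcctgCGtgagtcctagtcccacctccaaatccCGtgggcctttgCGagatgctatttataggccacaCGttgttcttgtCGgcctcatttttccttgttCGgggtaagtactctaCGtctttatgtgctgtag
The counts of CG were 11 for Tunar, 2 for Mira, 3 for Gm8541, 6 for Gm3143, 4 for C86187 and 25 for Snhg1. With both strands searched, GGGCGG was found in the Tunar and Snhg1 windows and TATAAA in the C86187 and Snhg1 windows. In the strand printed, the Tunar site reads CCGCCC and the TATAAA site of Snhg1 reads TTTATA. The rise with the most CG was Gm2694, with 42, in the window next to Cbln1, and the rise with the fewest was Gm30790, with 1. Among the falls, 4930599N23Rik had 45 and Dmrt1i and Snhg18 had 31 each, and these 3 are divergent from coding starts. 1700001L05Rik had 30 and is not divergent, with its nearest coding start 17050 bases away. Snhg1, with 25, was not counted as divergent either.

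**Figure D5:**
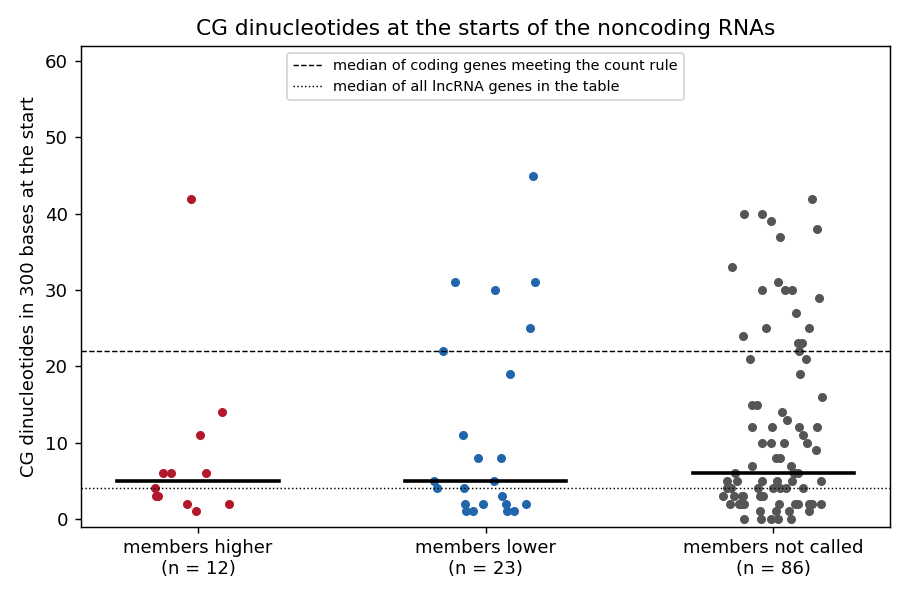
Number of CG dinucleotides in 300 bases at the start of members called higher (n = 12), lower (n = 23) and not called (n = 86); points are RNAs and bars medians of 5, 5 and 6. The dashed line is the median of coding genes that met the count rule (22) and the dotted line that of all lncRNA genes (4), and most points lie near the dotted line.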

How the data were processed

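Gene expression was measured by RNA-seq of amplified RNA (Ovation v2 kit, per the labels' protocols), with 3 DKO and 3 SKO libraries. The authors deposited raw read counts per Entrez gene with gene lengths. The submitters' processing notes list the aligner STAR 2.5.0a, GRCm38 and mm10. No source used here gives the counter, annotation, strand setting or treatment of multiply mapped reads. Amplified reads are not independent molecules. Totals of 15521975 to 26652745 counts put 3 counts at 0.116 to 0.171 CPM.

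Identifiers were matched to RefSeq GRCm38.p6 (24387 of 24421). Exons came from GENCODE and were matched for 143 members. Genes were tested in edgeR 4.0.16 (R 4.3.3): filterByExpr (minimum count 10, minimum total 15), TMM, two-sided quasi-likelihood test, Benjamini-Hochberg adjustment over 14845 genes, DKO over SKO. An adjusted p under 0.05 was called; standard errors come from the F statistic. CPM use TMM-scaled sizes; SDs of log2 CPM used a pseudocount of 0.5 CPM. The code was tested on simulated data.

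Members and lists were chosen with earlier results of these data known. Text names the 10 largest rises and falls called, the 8 highest by CPM, members with symbols, members passing through 1 genotype, those nearest the threshold and called members sharing exons; other names were chosen after their values were seen. Alternatives were DESeq2 1.42.0, limma 3.58.1 (voom with quality weights), other scalings and filters, the replicate number as a block, each library left out, other count rules, and a GC and length trend removed, which was chosen after seeing the data.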

Additional observations from a re-analysis of the deposited data

How the results depend on the processing

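Counts of members called, 14 higher and 29 lower, were 20 and 40 with DESeq2, 14 and 31 with RLE factors, 16 and 27 with at least 50 counts in 3 libraries, 12 and 37 without a filter, 18 and 35 with limma voom and quality weights, and 12 and 30 after removing a GC and length trend, where 143 members had a value. With library totals 19 and 18 members were called, 596 genes were lower in all and 14 of the noncoding RNAs below the rule were lower. Those RNAs, of which 56 were higher and 23 lower, had 35 lower with DESeq2, 14 higher at 50 counts and 91 higher without a filter. All genes called lower, 1100, became 1743 after the GC and length trend was removed. A rule of 500 counts gave 7 members higher, and 200 counts in all 6 libraries gave 7 and 18. Leaving out 1 library gave 7 to 14 members higher and 12 to 39 lower, 434 to 1501 of all genes lower, and 13 to 26 of the noncoding RNAs below the rule lower; each SKO library left out, and no DKO library, took the members called higher below 10. No called member changed sign in any of these fits, and 7 of the 14 rises and 12 of the 29 falls kept their call in all of them.

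Same-numbered libraries were not shown to be paired: the correlations of their deviations from the group means were 0.139, 0.0773 and 0.0479. With the replicate number as a block, 13 members were called higher and 39 lower, and 2651 and 1364 of all genes; each library correlated best with its own number, a hint from the data and not from the design. The 3 mice per genotype and the wider spread in DKO limit the precision of each member's change.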

Other observations

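A few noncoding RNAs differed between libraries of the same genotype by far more than most. Gm19757 had 1596, 1206 and 6 counts in the DKO libraries and 7, 0 and 792 counts in the SKO libraries, so it was well counted in 3 libraries and nearly absent in the others, and its log2 fold change of 2.16 was not called (adjusted p = 0.388). 1700116B05Rik had 276, 216 and 445 counts in DKO and 158, 1261 and 1569 counts in SKO (log2 fold change -1.58, adjusted p = 0.0958). Gm19299 had 291, 1130 and 2370 counts in DKO and 1044, 1064 and 1076 counts in SKO, close together in SKO and spread in DKO. Hectd2os had 1121, 751 and 434 counts in DKO and 1033, 775 and 978 counts in SKO. The mixed strain background was not resolved by animal in the labels, and its part in these values was not tested.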
